A study of Mus musculus with 16 samples.

Results

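The 10 genes described here encode enzymes that make serine, glycine, proline, asparagine and mitochondrial one-carbon units, and they were followed through the tibialis anterior muscle of UBR4 mKO and control mice at 6 and 24 months. They were taken by symbol from the 47643 genes listed in the expression table: Phgdh, Psat1 and Psph (serine synthesis), Shmt2, Mthfd2, Mthfd1l and Aldh1l2 (mitochondrial folate enzymes), Aldh18a1 and Pycr1 (proline synthesis) and Asns (asparagine synthesis). The genes were named by pathway, and Mthfd2 was chosen by its measured level in 24-month UBR4 mKO against 24-month WT muscle, so its values in the comparisons that use 24-month samples are given as a description with no test. All 10 genes had a value above 0 in each of the 16 samples, but only 6 reached the mean of 1 TPM (an expression level corrected for transcript length and scaled to the same total in each library) that was asked of a gene before the test across 10628 genes.

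The 16 samples were whole tibialis anterior muscles, 4 in each of 4 groups, from C57BL6/J mice labelled male. Mice of all groups carried both UBR4 fl/fl alleles and received tamoxifen as young adults. UBR4 mKO mice also carried the ACTA1-Cre transgene, which removes Ubr4 in skeletal muscle fibers once tamoxifen is given, whereas the floxed mice without Cre are called WT. Cells other than muscle fibers keep Ubr4 in this model, and a whole muscle holds them too, so fewer cells of a type and less RNA per cell cannot be told apart. The defining genes of skeletal muscle were at a high level in all samples, with 9 of them, Acta1 and Ckm included, summing to between 70944.8 and 96312.2 TPM. Single genes of that sum moved apart with age, since Myh4 was called higher and Myh1 and Myh2 lower at 24 months in both genotypes on both scalings, down to a log2 fold change of -2.13 in UBR4 mKO muscle as deposited.

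Serine is built from a glycolytic intermediate by PHGDH, PSAT1 and PSPH in turn. In mitochondria, SHMT2 moves a carbon from serine onto tetrahydrofolate, and MTHFD2, MTHFD1L and ALDH1L2 oxidize it further, release it as formate or burn it. Growing and embryonic cells use this route heavily and adult muscle little, and the transcription factor ATF4 is known to raise many of these genes, ASNS among them, in the integrated stress response.

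Ubr4, the deleted gene, was at 11.1, 15.7, 13.2 and 9.09 TPM in 6-month WT muscle and at 4.98, 4.91, 5.51 and 6.54 TPM in 6-month UBR4 mKO muscle. In the older mice it was at 17.2, 17.0, 17.8 and 21.1 TPM in WT and at 10.1, 14.6, 4.28 and 7.63 TPM in UBR4 mKO muscle. At each age the 2 genotypes did not overlap, with a log2 fold change of -1.12 at 6 months (adjusted p = 0.00365, limma) and of -1.12 at 24 months (adjusted p = 0.0598). Without replicate 2 of the 24-month UBR4 mKO samples, which kept the most Ubr4 in its group, the adjusted p at 24 months was 0.0146.

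Some libraries went against their labels or stood apart. All 8 samples at 6 months held Xist, the female-specific X-inactivation RNA, at 0.711 to 23.8 TPM, against at most 0.0252 TPM at 24 months, and replicate 4 of the 6-month UBR4 mKO samples held the Y-linked gene Ddx3y at 0.073 TPM where the other samples held 2.29 to 30.5 TPM. Replicate 3 of the 24-month UBR4 mKO samples had the lowest mean correlation with its own group, 0.969, where the other 15 samples were at 0.978 to 0.991. Results were also computed without these 2 libraries together and with Xist as a covariate. Differences with age and interactions of genotype and age cannot be told apart from what put Xist in the 6-month libraries. The covariate cannot separate them either, since Xist was near 0 in every 24-month sample. Mitochondrially encoded genes took 52.6% to 59.7% of the TPM in 6-month WT muscle and 46.1% to 51.7% in the other 12 samples. With TPM as deposited, 90.3% of genes were higher in UBR4 mKO muscle at 6 months, with a median log2 fold change over all tested genes of 0.33, and 87.5% were higher in WT muscle at 24 than at 6 months, with a median of 0.26. At 24 months the median between genotypes was 0.01. Comparisons are therefore also given after median-of-ratios scaling, which centres the samples on their shared genes and brings these medians to between -0.02 and 0.01.

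Promoters of 3 members are shown, since Mthfd2 is the gene the description turns on and Asns and Pycr1 are the members whose promoter holds the 8-letter core of the element through which ATF4 acts on amino acid genes. The sequences are the 250 bases before the RefSeq transcription start on GRCm38.p6, written 5′ to 3′ on the gene's own strand, with TGATGNAA matches of either strand in capitals.
Mthfd2 (chr6:83317605-83317854, minus strand): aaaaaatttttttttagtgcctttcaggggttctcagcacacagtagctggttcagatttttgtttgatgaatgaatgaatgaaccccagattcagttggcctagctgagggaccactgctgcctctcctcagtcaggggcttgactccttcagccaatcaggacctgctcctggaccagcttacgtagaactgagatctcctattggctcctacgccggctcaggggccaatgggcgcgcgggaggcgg
Asns (chr6:7693210-7693459, minus strand): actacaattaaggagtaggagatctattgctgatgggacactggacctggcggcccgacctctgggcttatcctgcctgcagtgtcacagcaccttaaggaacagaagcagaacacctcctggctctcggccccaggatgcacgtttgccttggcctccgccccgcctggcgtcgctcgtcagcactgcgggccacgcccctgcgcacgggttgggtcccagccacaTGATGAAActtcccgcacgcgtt
Pycr1 (chr11:120643749-120643998, minus strand): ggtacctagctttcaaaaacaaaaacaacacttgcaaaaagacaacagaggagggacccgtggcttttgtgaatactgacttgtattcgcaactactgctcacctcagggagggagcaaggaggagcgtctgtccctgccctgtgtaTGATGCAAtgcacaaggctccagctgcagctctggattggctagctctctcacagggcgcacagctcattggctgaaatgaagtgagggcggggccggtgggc
The RefSeq start used for Mthfd2 lies inside the longer gene body that GENCODE vM21 gives it on the same build. The match began 23 bases before the start of Asns and 103 bases before the start of Pycr1, both on the gene's strand. No match was found in the 300 bases from 250 before to 50 after the start of Mthfd2, Mthfd1l, Shmt2, Phgdh, Psat1, Psph or Aldh18a1, so 2 of the 9 members with a promoter sequence held one. Of all 27025 genes with a promoter sequence 4.51% held a match, and of 26 genes of the integrated stress response 8 did, among them Trib3, Chac1, Atf3 and Fgf21. A match describes letters in a window and not a bound site.

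Mthfd2, a mitochondrial dehydrogenase and cyclohydrolase of the folate pathway (chromosome 6, 83305691 to 83325908 on GRCm38, minus strand), was highest in 24-month UBR4 mKO muscle, the values it was picked for. It was at 1.30, 1.45, 1.35 and 1.06 TPM in 6-month WT and at 2.00, 1.64, 1.96 and 1.42 TPM in 6-month UBR4 mKO muscle. In 24-month WT muscle it was at 2.53, 2.67, 1.57 and 2.25 TPM, and in 24-month UBR4 mKO muscle at 3.43, 4.90, 5.78 and 7.71 TPM. The order of the group means was 1.29 ± 0.166, 1.75 ± 0.276, 2.26 ± 0.489 and 5.45 ± 1.79 TPM (SD, n = 4 each). The first 2 groups overlapped in 1 sample each way, 6-month UBR4 mKO and 24-month WT muscle overlapped as well, and the 24-month UBR4 mKO samples lay above all other 12.

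As a description, the log2 fold change of Mthfd2 between genotypes at 24 months was 1.21 (SE 0.213), and 1.18 after median-of-ratios scaling. With age it was 0.74 higher in WT muscle and 1.54 higher in UBR4 mKO muscle on the log2 scale, or 0.48 and 1.59 after scaling. At 6 months, the comparison that the choice of Mthfd2 did not use, the log2 fold change was 0.41 (SE 0.213, adjusted p = 0.116, limma) and the exact two-sided permutation test gave p = 0.0571, where 0.0286 is the smallest value that 4 samples against 4 allow. After scaling, the 6-month value was 0.08 with an adjusted p of 0.835, and over 30 alternative settings the adjusted p ran from 0.0478 with array weights to 0.835. On TPM as deposited the 6-month value of Mthfd2 lay 0.08 above that of the median gene.

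**Figure D1:**
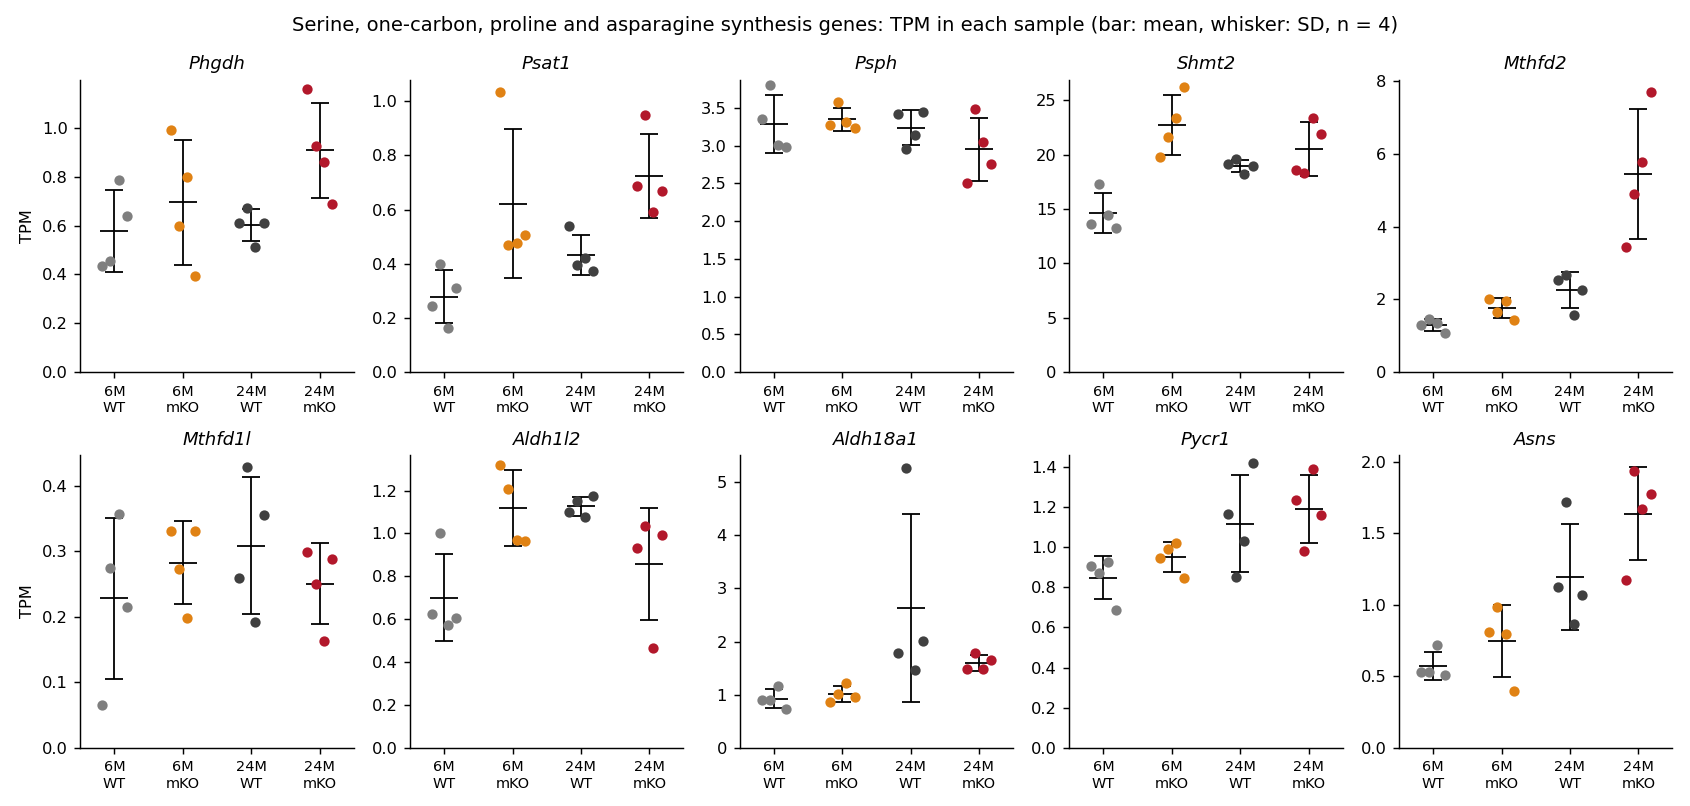
TPM of the 10 genes in each of the 16 samples, on a linear axis from 0, with the group mean and SD (n = 4). Mthfd2 reached 3.43 to 7.71 TPM in 24-month UBR4 mKO muscle and at most 2.67 TPM elsewhere, Shmt2 was the most abundant gene in all samples, and a single 24-month WT sample held Aldh18a1 at 5.28 TPM.

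At 24 months none of the other members that could be tested was called between genotypes. Of these 5 genes, 0 passed with limma at an adjusted p under 0.05 and 0 had an unadjusted p under that threshold. After median-of-ratios scaling, and with Dunn's test on TPM as deposited, both counts were 0 again. The background was low there, since 0.63% of the 10628 genes passed in either direction, and 0.913% after scaling. The median log2 fold change of the 5 was 0.10, against 0.01 over all genes.

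The first enzyme of serine synthesis, Phgdh (chromosome 3, 98313170 to 98339990), was low throughout. It was at 0.434, 0.453, 0.788 and 0.641 TPM in 6-month WT and at 0.992, 0.598, 0.798 and 0.394 TPM in 6-month UBR4 mKO muscle, where the groups overlapped. At 24 months it was at 0.61, 0.674, 0.513 and 0.611 TPM in WT and at 1.16, 0.929, 0.859 and 0.688 TPM in UBR4 mKO muscle. All UBR4 mKO samples were higher at 24 months, with a log2 fold change of 0.51 and an exact permutation p of 0.0286, but the adjusted p in a limma fit with no filter on low values was 0.544, and after scaling the groups overlapped (exact p = 0.0571). Phgdh has 19 processed pseudogenes that match its transcript at 88.2% to 98.7% of aligned bases, and the 9 of these in the table were listed at 0 in every sample. How reads shared with them were assigned was not given in the sources used here, so the level of Phgdh is uncertain.

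Psat1, the aminotransferase of the second step (chromosome 19, 15904678 to 15947337), was higher in UBR4 mKO muscle at both ages. At 6 months it was at 0.244, 0.397, 0.164 and 0.309 TPM in WT and at 1.04, 0.47, 0.477 and 0.506 TPM in UBR4 mKO muscle. In 24-month muscle it was at 0.54, 0.394, 0.422 and 0.371 TPM in WT and at 0.689, 0.95, 0.593 and 0.67 TPM in UBR4 mKO muscle. The groups were apart at both ages on both scalings (exact permutation p = 0.0286 each). The log2 fold change was 0.90 at 6 months, or 0.63 after scaling, and 0.63 at 24 months, or 0.60 after scaling. In a fit with no filter on low values, over 21223 genes, the 6-month difference had an adjusted p of 0.0179 and the 24-month difference one of 0.407. In that fit 23.4% of genes passed at 6 months and 0.203% at 24 months.

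Replicate 1 of the 6-month UBR4 mKO samples was the highest for Psat1, and the log2 fold change at 6 months was 0.66 without it. That sample also had the highest level of leukocyte markers at its age. Summed over 8 such genes (Lyz2, C1qa, Csf1r and others), it held 187 TPM, against 53.3 to 68.7 TPM in the other 6-month UBR4 mKO samples and 16.3 to 24.2 TPM in 6-month WT muscle. Psph (chromosome 5, 129765558 to 129787449), which ends the serine branch by removing the phosphate, was close to level, from 2.51 to 3.81 TPM over all samples. In limma it passed in none of the 4 comparisons on either scaling, and its adjusted p between genotypes was 0.828 at 6 and 0.819 at 24 months on TPM as deposited. Its direction at 6 months depended on the scaling, since the log2 fold change was 0.03 as deposited and -0.31 after scaling (adjusted p = 0.0765), where the groups no longer overlapped. Its transcript shares 452 bases with the opposite strand of Cct6a, a far more abundant gene at a mean of 46.2 TPM, and the strand setting of the counting was not given.

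Shmt2, the mitochondrial serine hydroxymethyltransferase (chromosome 10, 127517123 to 127522444), was the most abundant member and rose with Ubr4 loss at 6 months on TPM as deposited. It was at 13.6, 17.3, 14.5 and 13.2 TPM in 6-month WT and at 19.8, 21.6, 23.3 and 26.2 TPM in 6-month UBR4 mKO muscle. At 24 months it was at 19.1, 19.6, 18.2 and 19.0 TPM in WT and at 18.6, 18.3, 23.4 and 21.9 TPM in UBR4 mKO muscle. The 6-month groups were apart, whereas the 24-month groups overlapped.

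The 6-month log2 fold change of Shmt2 was 0.63 (SE 0.109, adjusted p = 0.000643, limma), and it passed in all 16 fits that left out 1 sample. After scaling it was 0.28 (adjusted p = 0.0803), so the call was lost there, although all 4 UBR4 mKO samples still lay above all 4 WT samples (exact permutation p = 0.0286). Shmt2 was the 1 of 6 members tested that passed at 6 months. This count stood against a background of 43.7% of genes that passed upward and 1.15% that passed downward, so 1 of 6 did not exceed the background. After scaling 0 of 6 passed, with 2 of 6 at an unadjusted p under 0.05 (Shmt2 upward and Psph downward), against 16.8% of all genes called in either direction.

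In WT muscle Shmt2 was 0.38 higher on the log2 scale at 24 than at 6 months (adjusted p = 0.0222), but 0.11 higher after scaling (adjusted p = 0.564), and the call was also lost without replicate 1, 3 or 4 of the 6-month WT samples or replicate 1 or 4 of the 24-month WT samples (adjusted p of 0.054 to 0.0791). The interaction of genotype and age for Shmt2 was -0.52 (SE 0.155, adjusted p = 0.0592, unadjusted p = 0.00352). It was -0.19 after scaling with an adjusted p of 0.51, whereas it passed without replicate 2 of the 6-month WT samples (-0.60, adjusted p = 0.0155) or replicate 3 of the 24-month UBR4 mKO samples (-0.59, adjusted p = 0.0361). Of the 5 members tested for the interaction 0 passed, and 1 had an unadjusted p under 0.05. Of all genes 4.7% passed the interaction test, or 1.99% after scaling, where 0 of the 5 members passed and 0 had an unadjusted p under 0.05.

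The remaining mitochondrial folate genes were low. Mthfd1l (chromosome 10, 3973118 to 4167081), which releases formate, was between 0.0655 and 0.429 TPM and overlapped in all 4 comparisons. Aldh1l2 (chromosome 10, 83487450 to 83534140), which burns the formyl group to carbon dioxide, was at 0.625, 1.00, 0.572 and 0.605 TPM in 6-month WT and at 1.32, 1.21, 0.972 and 0.965 TPM in 6-month UBR4 mKO muscle. At 24 months it was at 1.10, 1.15, 1.08 and 1.17 TPM in WT and at 0.933, 1.04, 0.467 and 0.993 TPM in UBR4 mKO muscle. At 24 months all UBR4 mKO samples were thus below all WT samples, the opposite side from Mthfd2.

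At 6 months the groups of Aldh1l2 overlapped (log2 fold change 0.62, exact permutation p = 0.0857, and 0.31 after scaling, exact permutation p = 0.143). Its log2 fold change at 24 months was -0.41 (exact permutation p = 0.0286, adjusted p = 0.626 in the fit with no filter), and -0.17 without replicate 3 of the UBR4 mKO samples. From 6 to 24 months in WT muscle it was 0.64 (exact permutation p = 0.0286, adjusted p = 0.073 with no filter), and 0.40 after scaling with the groups still apart. In the fit with no filter 10.8% of genes passed with age in WT and 3.97% in UBR4 mKO muscle, and the 4 members below 1 TPM had adjusted p of 0.073 to 0.906 in WT and of 0.425 to 0.881 in UBR4 mKO muscle. The interaction of genotype and age for Aldh1l2 was -1.03 in that fit, with an adjusted p of 0.104. Aldh1l2 shares 1056 bases with the opposite strand of D10Wsu102e, at a mean of 2.27 TPM, so reads of the 2 may not be separable.

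Asns (chromosome 6, 7675169 to 7693254), which makes asparagine from aspartate and glutamine, was higher at 24 than at 6 months in both genotypes. It was at 0.531, 0.532, 0.716 and 0.51 TPM in 6-month WT and at 1.12, 1.72, 0.863 and 1.07 TPM in 24-month WT muscle. In UBR4 mKO muscle it was at 0.805, 0.986, 0.793 and 0.394 TPM at 6 months and at 1.17, 1.93, 1.67 and 1.77 TPM at 24 months. In each genotype all 24-month samples were above all 6-month samples.

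The mean of Asns over the 16 samples reached 1 TPM only through the 24-month samples, so its change with age is given from the fit with no filter on low values. There it rose by 0.91 on the log2 scale in WT (adjusted p = 0.032, limma) and by 1.08 in UBR4 mKO muscle (adjusted p = 0.0247). After scaling the changes were 0.67 and 1.12, and the groups were apart in both (exact permutation p = 0.0286 each). With the filter the adjusted p were 0.0168 and 0.0143, and 0.121 and 0.0138 after scaling. In that fit the call in WT was also lost without replicate 4 of the 6-month samples (adjusted p = 0.0563) or replicate 2 of the 24-month samples (adjusted p = 0.0505). In UBR4 mKO muscle it was lost without replicate 2 of the 24-month samples (adjusted p = 0.0502), with Xist as a covariate and without both libraries that stand apart. Between genotypes Asns overlapped at both ages. Its interaction of genotype and age was 0.16 (adjusted p = 0.740), so the rise was not shown to differ between genotypes.

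Proline synthesis starts with Aldh18a1 (chromosome 19, 40550257 to 40588463), which turns glutamate into the semialdehyde, and Pycr1 (chromosome 11, 120635712 to 120643769) carries out the last step. Aldh18a1 was at 0.897, 0.899, 1.16 and 0.724 TPM in 6-month WT and at 1.78, 5.28, 1.46 and 2.01 TPM in 24-month WT muscle. In UBR4 mKO muscle it was at 0.863, 1.02, 1.21 and 0.949 TPM at 6 months and at 1.48, 1.78, 1.48 and 1.64 TPM at 24 months. Older samples were above younger samples in both genotypes.

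In WT muscle Aldh18a1 rose by 1.25 on the log2 scale (SE 0.278, adjusted p = 0.00636, and 0.0148 in the fit with no filter), or by 1.00 after scaling (adjusted p = 0.0349). It passed in all 16 fits that left out 1 sample, with a rise of 0.87 without replicate 2 of the 24-month samples (adjusted p = 0.00549). These fits and the scaled fit used the filter, which Aldh18a1 met through other groups, since its mean in 6-month WT muscle was 0.919 TPM. In UBR4 mKO muscle the change was 0.62 (adjusted p = 0.225), with an exact permutation p of 0.0286. The adjusted p there was 0.0365 when replicate 2 of the 24-month WT samples was left out of the shared estimate of the spread. Pycr1 was between 0.689 and 1.42 TPM and passed in none of the 4 comparisons (limma, either scaling), with log2 fold changes of 0.10 to 0.35 on TPM as deposited. Its group means were 0.848 and 0.951 TPM in WT and UBR4 mKO muscle at 6 months, so it met the filter only through the 24-month samples.

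Counts of calls with age are over the 5 members other than Mthfd2 that reached 1 TPM. Asns, Pycr1 and Aldh18a1 had means below 1 TPM in 6-month WT muscle and reached it through other groups, so the counts are a description and are not read against the background. Of these 5, 3 passed upward with age in WT muscle (Shmt2, Asns and Aldh18a1) and 0 downward, where 24% of all genes passed upward and 1.07% downward. After scaling 1 of 5 passed (Aldh18a1), against 9.77% of all genes in either direction. In UBR4 mKO muscle 1 of 5 passed (Asns, upward), where 2.45% of all genes passed upward and 3.85% downward, and the count was 1 after scaling too, against 11.3% of all genes.

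**Figure D2:**
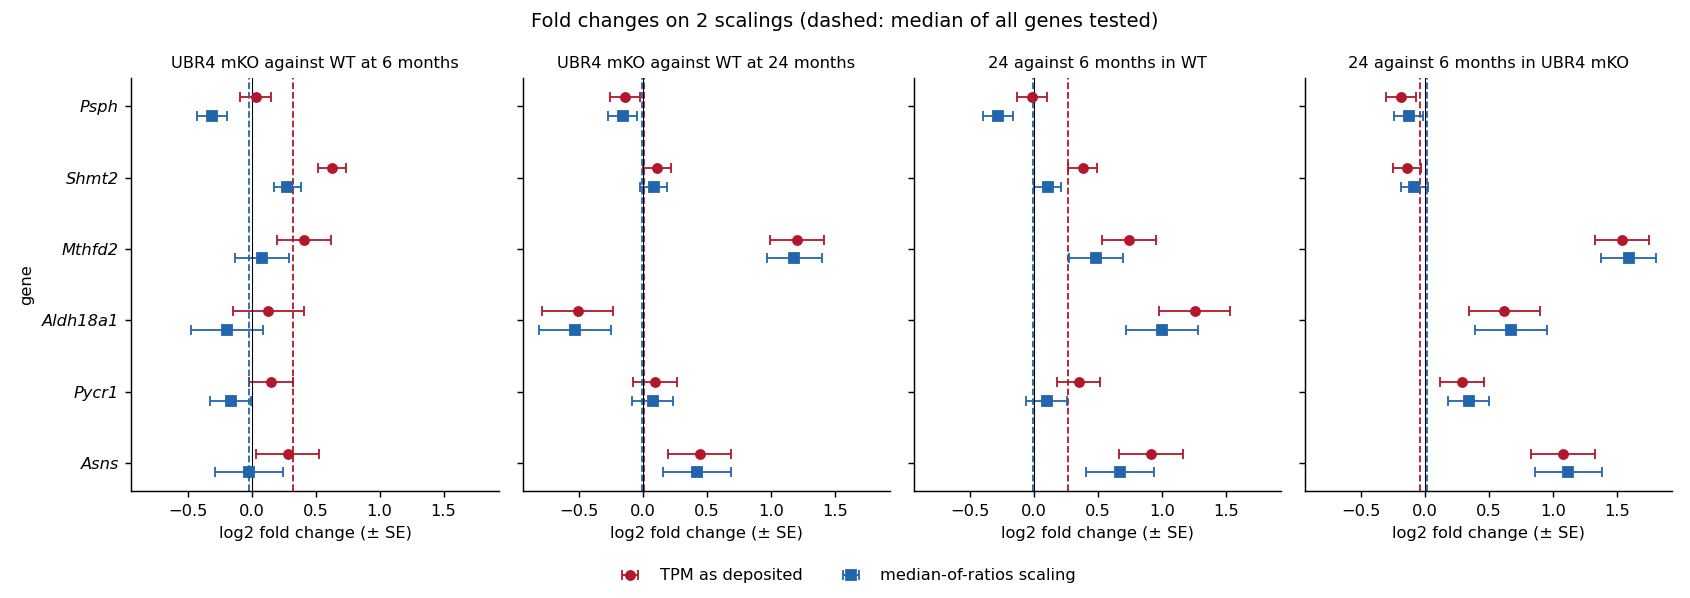
Log2 fold changes (± SE) of the 6 members above the filter in the 4 comparisons, with TPM as deposited (circles) and after median-of-ratios scaling (squares), and the median of all genes tested as a dashed line. At 24 months between genotypes Mthfd2, picked for it, was at 1.21 and the other 5 lay between -0.51 (Aldh18a1, at -0.12 without replicate 2 of the 24-month WT samples) and 0.44, and at 6 months the values moved with the scaling.

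The cytosolic and paralogous enzymes of the members each stood at a level of their own. Mthfd2l, its mitochondrial paralog of adult tissues, had group means of 0.88, 1.02, 0.924 and 0.957 TPM in 6-month WT, 6-month UBR4 mKO, 24-month WT and 24-month UBR4 mKO muscle, and overlapped between genotypes at 24 months (log2 fold change 0.03, exact permutation p = 0.743). Mthfd1, the cytosolic enzyme of all 3 steps, was between 13.2 and 24.6 TPM. Shmt1, the cytosolic partner of Shmt2, was between 1.48 and 3.59 TPM, and with age in WT muscle it passed on TPM as deposited (log2 fold change 0.55, adjusted p = 0.0236) and not after scaling (0.29, adjusted p = 0.227). On TPM as deposited Mthfd1 was called higher in 6-month UBR4 mKO muscle (0.42, adjusted p = 0.00706), but after scaling it was at 0.07 with an adjusted p of 0.568.

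Aldh1l1, the cytosolic counterpart of Aldh1l2, was the 1 called gene among 16 tested genes of the wider folate pathway at 24 months, where 0.63% of all genes passed. It was at 1.85, 1.74, 1.93 and 2.46 TPM in 24-month WT and at 3.36, 2.81, 2.97 and 3.62 TPM in 24-month UBR4 mKO muscle, with a log2 fold change of 0.65 (adjusted p = 0.0497). The call stood at the threshold. It passed after scaling (0.63, adjusted p = 0.0144) and in 6 of 30 alternative settings, with adjusted p from 0.00534 to 0.959, and was lost in 15 of 16 fits without 1 sample. Its log2 fold change with age in WT muscle was -0.37 (adjusted p = 0.0634), or -0.64 after scaling (adjusted p = 0.00213).

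Around the members, genes of the same pathways were listed with earlier results of these data known. At 6 months 7 of 16 tested folate genes, 10 of 15 genes of serine, glycine and methionine metabolism and 5 of 12 genes of proline, glutamate and asparagine metabolism passed upward, and 0, 1 (Gcat) and 1 (Gpt2) downward, beside 43.7% of all genes upward and 1.15% downward. Their medians were 0.41, 0.41 and 0.23, beside 0.33 over all genes. After scaling the upward counts were 0, 2 and 0, and the 2 were Mat2a, which makes S-adenosylmethionine, and Gamt, which makes creatine. The downward counts after scaling were 0, 1 (Gcat) and 2 (Gpt2 and Asrgl1), and 16.8% of all genes passed in either direction. Gamt went from 8.16 to 10.04 TPM in WT to 13.7 to 26.3 TPM in UBR4 mKO muscle at 6 months (log2 fold change 1.30, adjusted p = 0.000436, and 0.95 after scaling, adjusted p = 0.0192). Mat2a went from 43.4 to 74.0 TPM to 85.4 to 116 TPM (0.83, adjusted p = 0.000498, and 0.47 after scaling, adjusted p = 0.00567). With age in UBR4 mKO muscle, on the list of 15, Gcat passed upward and Gamt downward on TPM as deposited, beside 2.45% of all genes upward and 3.85% downward. After scaling 3 passed upward (Gcat, Ahcy and Gnmt) and 2 downward (Srr and Gamt), beside 11.3% in either direction. Gamt fell, at -0.91 (adjusted p = 0.0164) and -0.85 after scaling (adjusted p = 0.0438), a call lost without replicate 1, 2 or 3 of the 6-month samples (adjusted p of 0.0558 to 0.0649).

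At 24 months between genotypes the same 3 lists held 1 called gene (Aldh1l1), 0 and 0, with medians of 0.04, 0.06 and -0.02, beside 0.63% of all genes called. At an unadjusted p under 0.05 the counts in either direction were 1, 3 and 4, and Dunn's test called 0 in each list. After scaling the serine racemase gene Srr was called lower as well, beside 0.913% of all genes. With age in WT muscle 5 of 16, 6 of 15 and 2 of 12 passed upward and 0 downward, beside 24% of all genes upward. After scaling the upward counts with age were 0, 0 and 1, with 0, 5 and 2 at an unadjusted p under 0.05, and the 1 was Aldh4a1 of proline breakdown (0.24, adjusted p = 0.038). The downward counts after scaling were 1 (Aldh1l1), 0 and 2 (Glud1 and Got1), and 9.77% of all genes passed in either direction. Oat, which feeds ornithine into proline, was at 99.2 to 150 TPM in 6-month and at 154 to 185 TPM in 24-month WT muscle (0.51, adjusted p = 0.0101), and its call was lost after scaling (0.24, adjusted p = 0.0873).

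Of 22 tested genes of the integrated stress response 0 passed between genotypes at 24 months on either scaling, which is near the background of 0.63% of all genes, or 0.913% after scaling (list median -0.05 on TPM as deposited and -0.08 after scaling), 1 had an unadjusted p under 0.05 on each, and Dunn's test called 0. Their log2 fold changes ran from -1.31 to 0.28 on TPM as deposited and from -1.33 to 0.25 after scaling. Atf4 itself was at 155, 179, 122 and 161 TPM in 24-month WT and at 146, 162, 148 and 188 TPM in 24-month UBR4 mKO muscle, and the groups overlapped (0.07, adjusted p = 0.96, limma). Atf5 (-0.03, adjusted p = 0.986) and Ddit3, which encodes CHOP (0.28, adjusted p = 0.552), did not pass either.

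Trib3 and Gdf15, low genes downstream of ATF4, lay apart between genotypes at 24 months, and Fgf21 did not. Trib3, a pseudokinase that ATF4 and CHOP induce, was at 0.907, 0.639, 0.533 and 0.715 TPM in WT and at 1.21, 1.17, 2.23 and 1.16 TPM in UBR4 mKO muscle (log2 fold change 0.92, exact permutation p = 0.0286, and 0.90 after scaling with the same p). Gdf15, a secreted stress signal, was at 0.0496, 0.0733, 0.0765 and 0.0656 TPM in WT and at 0.222, 0.192, 0.531 and 0.41 TPM in UBR4 mKO muscle (1.33, exact permutation p = 0.0286). Both were below 1 TPM on average over the 16 samples, so they were not among the genes of the adjusted test. Their exact p are unadjusted and the smallest that 4 samples against 4 allow, and the share of all genes lying apart in this way is not given. Of the 29 listed genes of the stress response 22 were tested, and the other low genes of the list are not shown. Fgf21, another such signal, was listed at 0 in all 6-month WT samples and overlapped between genotypes at 24 months, at 0.341 to 1.32 TPM in WT and 0.148 to 1.75 TPM in UBR4 mKO muscle.

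At 6 months Atf4 was at a log2 fold change of 0.03 on TPM as deposited (adjusted p = 0.859) and of -0.33 after scaling (adjusted p = 0.0459), so its direction depended on the scaling. Atf5 was at -0.37 (adjusted p = 0.0806) and at -0.72 after scaling (adjusted p = 0.00531), and Ddit3 at -0.11 (adjusted p = 0.516) and -0.46 (adjusted p = 0.0376). On the list, 2 of 22 genes passed upward at 6 months and 0 downward (Eif2ak2 and Xpot), beside 43.7% of all genes upward. After scaling 0 passed upward and 5 downward, beside 16.8% of all genes in either direction. With age in WT muscle 5 of 22 passed upward (Atf3, Sesn2, Eif4ebp1, Vldlr and Xpot), beside 24% of all genes upward, and after scaling 0 upward and 3 downward, beside 9.77% in either direction. With age in UBR4 mKO muscle, where 2.45% of all genes passed upward and 3.85% downward, or 11.3% in either direction after scaling, 1 of 22 passed on both scalings, the translation repressor Eif4ebp1, which went from 42.8 to 62.2 TPM to 79.7 to 106 TPM (0.79, adjusted p = 0.0165). The call of Eif4ebp1 was lost without replicate 3 of the 6-month UBR4 mKO samples (adjusted p = 0.066, limma) and with Dunn's test (adjusted p = 0.395).

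Mitochondrial chaperones and proteases, a further source of stress signals, held 0 of 13 called genes between genotypes at 24 months on both scalings, near the same background, with 1 and 0 at an unadjusted p under 0.05 and 0 by Dunn's test. At 6 months 5 of 13 passed upward on TPM as deposited, beside 43.7% of all genes, and after scaling 0 upward and 1 downward (Trap1), beside 16.8% in either direction. Myc, a transcription factor that also acts on one-carbon genes, was at 1.48, 1.39, 1.03 and 0.936 TPM in 6-month WT and at 2.65, 2.54, 2.47 and 2.32 TPM in 6-month UBR4 mKO muscle. At 24 months it was at 4.00, 4.07, 3.11 and 3.69 TPM in WT and at 1.92, 2.71, 2.61 and 2.47 TPM in UBR4 mKO muscle. Myc rose at 6 months (1.01, adjusted p = 0.00026, and 0.68 after scaling, adjusted p = 0.0053) and with age in WT muscle (1.56, adjusted p = 1.06e-05, and 1.30 after scaling, adjusted p = 5.7e-05). At 24 months it was lower in all UBR4 mKO samples, at -0.60 (adjusted p = 0.102). The genotype effect on Myc differed between the ages, with an interaction of -1.61 (adjusted p = 0.000789), or -1.29 after scaling (adjusted p = 0.00477).

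**Figure D3:**
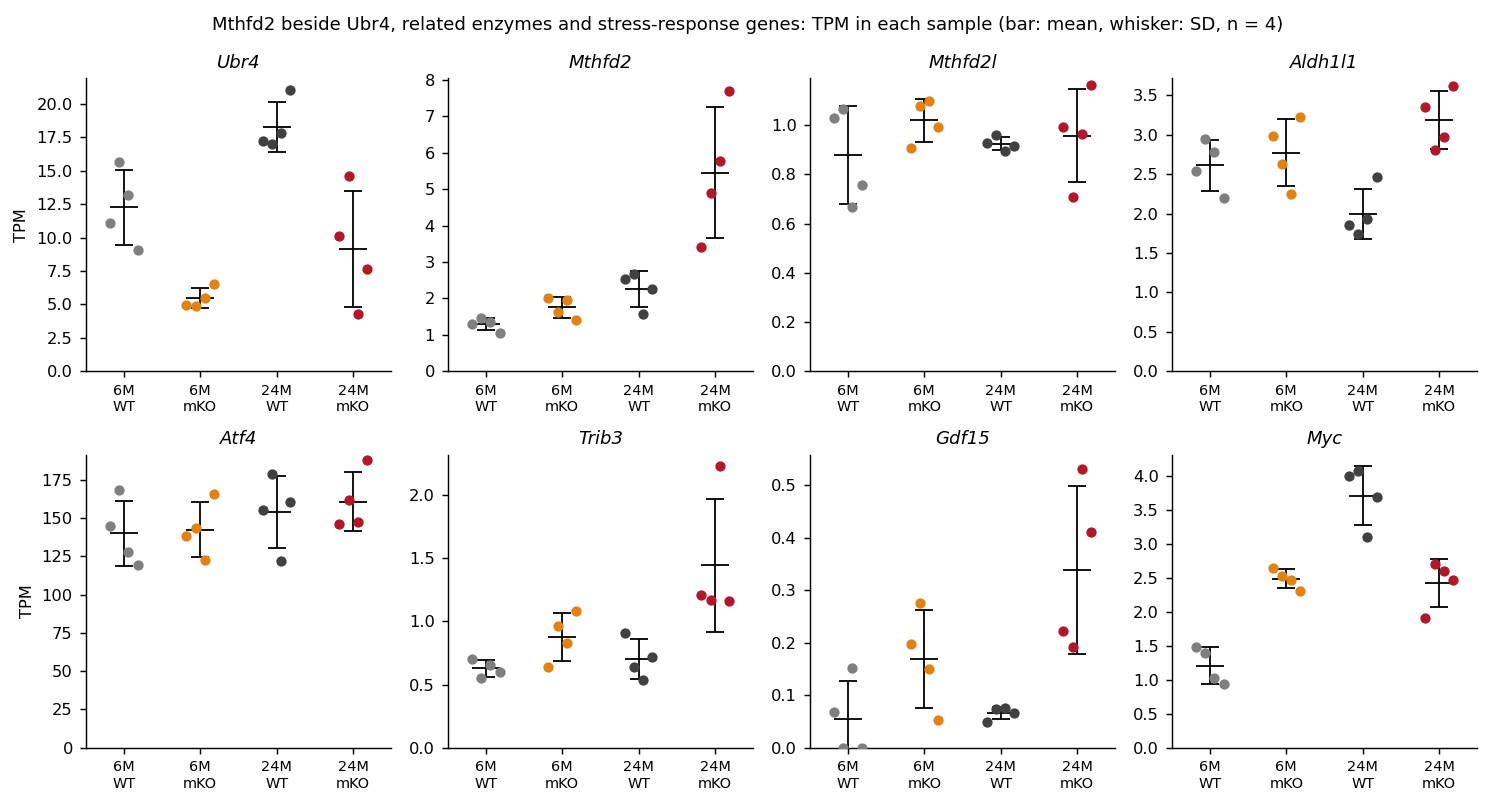
TPM of Mthfd2 beside the deleted gene Ubr4, the folate enzymes Mthfd2l and Aldh1l1, the stress-response genes Atf4, Trib3 and Gdf15 and the transcription factor gene Myc in each of the 16 samples, on a linear axis from 0, with the group mean and SD (n = 4). Mthfd2l stayed at group means of 0.88 to 1.02 TPM and Atf4 overlapped in all groups, whereas Trib3 and Gdf15 were higher in all 24-month UBR4 mKO samples than in 24-month WT samples.

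Markers of some cell types other than muscle fibers moved in the same comparisons. The 5 tested leukocyte markers of 8 listed all rose at 6 months in UBR4 mKO muscle (median log2 fold change 2.01, and 1.70 after scaling; Dunn's test called 1), where 43.7% of all genes passed upward, or 16.8% in either direction after scaling. At 24 months 0 of 5 passed, beside 0.63% of all genes, with a median of 1.06, 4 of 5 at an unadjusted p under 0.05 and 0 by Dunn's test. With age in WT muscle 3 of 5 passed upward (Cd68, Lyz2 and C1qa, with a median of 1.39 over the 5), beside 24% of all genes, and after scaling Cd68 alone (median 1.12), beside 9.77% in either direction, with 0 by Dunn's test. In 24-month WT muscle the 8 markers summed to 30.2 to 63.0 TPM, and in 24-month UBR4 mKO muscle to 113, 312, 75.6 and 84.6 TPM. Within that group replicate 2 held the most leukocyte RNA and had Mthfd2 at 4.90 TPM, and replicate 4 had Mthfd2 at 7.71 TPM with 84.6 TPM of markers. The markers and Mthfd2 were both higher in all 24-month UBR4 mKO than in all 24-month WT samples, so the 2 cannot be told apart here. Psat1 was highest in the samples with the most leukocyte markers at each age, replicate 1 at 6 months and replicate 2 at 24 months, both UBR4 mKO. The 4 listed adipocyte markers summed to 1.85 to 4.30 TPM in 24-month WT and to 18.7, 1.97, 7.48 and 6.27 TPM in 24-month UBR4 mKO muscle, and to 1.05 to 3.19 TPM in both groups at 6 months. Of the 2 tested, 0 were called between genotypes at 24 months (median 1.14, and 1.12 after scaling), and both had an unadjusted p under 0.05. Of 3 tested markers of satellite cells and regenerating fibers, Myog and Myh3 were called higher at 6 months on both scalings (median of the 3 at 1.83 as deposited), and of 4 fibroblast markers Col3a1 was, with Pdgfra on TPM as deposited alone. Myog was also called higher with age in WT muscle on both scalings. With age in UBR4 mKO muscle Col1a1 and Col3a1 of 4 fibroblast genes were called lower on both scalings, while 2 of the 4 lay above 0. Pecam1 and Cdh5 of 3 endothelial genes and Tnmd and Thbs4 of 2 tendon genes were called lower there too, on both scalings. Myod1 was called higher and Myh3 lower on both scalings. Of all genes 2.45% passed upward and 3.85% downward, or 11.3% in either direction after scaling. In WT muscle Col1a1 was called lower with age on both scalings, with 2 of the 4 fibroblast genes above 0, and Pecam1, Cdh5 and Tnmd after scaling. There 1.07% of all genes passed downward, or 9.77% in either direction after scaling. A difference between the genotypes was called by the interaction for none of these 6 fibroblast, endothelial and tendon genes on either scaling. The part of these cells in any result was not tested.

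Markers of dividing cells, which use MTHFD2 heavily, summed to a few TPM at most. The 7 listed genes summed to 0.714 to 1.61 TPM in 6-month WT, 1.77 to 5.59 TPM in 6-month UBR4 mKO, 1.11 to 1.49 TPM in 24-month WT and 1.64 to 4.72 TPM in 24-month UBR4 mKO muscle. Among the 24-month UBR4 mKO samples replicate 2 was again the highest. Rrm2, a ribonucleotide reductase subunit, was the 1 of the 7 that reached a mean of 1 TPM, and it did so through the groups where it is high, so its values are given with no test. Its group means were 0.43, 1.53, 0.906 and 1.59 TPM in 6-month WT, 6-month UBR4 mKO, 24-month WT and 24-month UBR4 mKO muscle. Denervation markers were at 44.1 to 75.3 TPM in 24-month WT and at 37.3, 40.9, 95.9 and 71.3 TPM in 24-month UBR4 mKO muscle, where replicates 3 and 4, with the most Mthfd2, were also the highest. The 4 tested denervation markers all rose at 6 months (median 1.35, and 1.01 after scaling), where Dunn's test called 1 and 43.7% of all genes passed upward, or 16.8% in either direction after scaling. With age in WT muscle 4 of 4 rose on TPM as deposited (median 1.42), beside 24% of all genes, and 3 of 4 after scaling (median 1.15), beside 9.77% in either direction, and Dunn's test called 0. Of these markers 0 of 4 passed at 24 months between genotypes, beside 0.63% of all genes, with 0 at an unadjusted p under 0.05 and 0 by Dunn's test. Their part in the level of Mthfd2 was not tested.

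**Figure D4:**
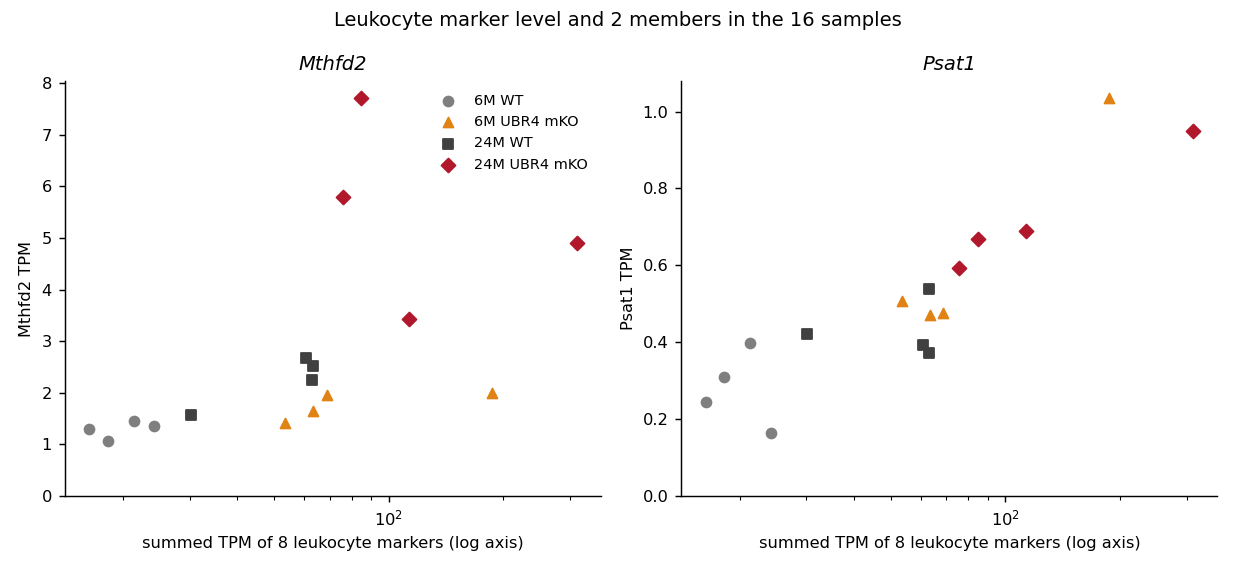
TPM of Mthfd2 (left) and Psat1 (right) against the summed TPM of 8 leukocyte markers on a log axis, 1 point per sample. Within 24-month UBR4 mKO muscle the highest Mthfd2, 7.71 TPM, fell at 84.6 TPM of markers. The highest Psat1 values of both ages, 1.04 and 0.95 TPM, fell at the highest marker levels, 187 and 312 TPM. The part of leukocytes in either gene was not tested.

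Across the 16 samples, after scaling, the member whose pattern was most like that of Mthfd2 was Asns (Pearson's r = 0.855, Spearman's rho = 0.912). Pearson's r of the others ran from -0.438 for Psph to 0.547 for Psat1, and Spearman's rho from -0.479 for Psph to 0.682 for Aldh18a1. Outside the members, the 5 genes most like Mthfd2 of 10622 were Gm6166 (r = 0.911, rho = 0.746), Samd10 (0.892, 0.924), Extl1 (0.887, 0.738), Cnbp (0.868, 0.685) and Spcs3 (0.865, 0.809). Gm6166 was listed at 0 in 12 samples and at 1.37, 8.69, 4.599 and 5.54 TPM in 24-month UBR4 mKO muscle, so it met the filter only through that group. Samd10 had group means of 1.73, 2.31, 3.89 and 6.46 TPM in the order 6-month WT, 6-month UBR4 mKO, 24-month WT and 24-month UBR4 mKO, the same order as Mthfd2. These values describe likeness over points that share their groups, so they carry no test. The points include the 24-month UBR4 mKO values for which Mthfd2 was picked, so a gene high in that group tends to rank near the top. With Spearman's rho in place of r, 1 of the 5 genes (Samd10) stayed among the nearest 5, and with TPM as deposited 2 did.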

How the data were processed

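RNA was extracted from tibialis anterior muscles and sequenced, and the authors aligned the reads to the mouse genome mm10 with CLC Genomics Workbench and deposited 1 table of TPM values (transcript abundance corrected for length), in which each of the 16 columns sums to 1000000. No read counts were used here, so the depth of each library is unknown and no counting interval is given. The labels and the methods name different library kits and sequencers, and the strand setting of the counting was not given in the sources used here.

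TPM were compared as log2(TPM + 0.1), a scale that understates the change of low genes. Genes with a mean of at least 1 TPM (10628 of 47643) entered 1 linear model over all 4 groups in limma 3.58.1 (R 4.3.3) with empirical Bayes moderation and a variance trend, and p-values were adjusted by the Benjamini-Hochberg method. A gene was called at an adjusted p under 0.05. For genes below the filter an exact permutation test (two-sided) was used, which takes all 70 ways to split 8 samples into groups of 4 (scipy 1.17.1) and whose p is unadjusted. The groups are those of the labels, which number 4 samples in each, and nothing pairs samples across groups. P-values measure the spread between these samples. Comparisons that share samples, such as the 2 genotype effects and the 2 age effects, are not independent of each other.

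Comparisons were repeated under other settings, among them median-of-ratios scaling, other pseudocounts and filters, array weights and leaving out each sample, and 2 settings (Xist as a covariate, and leaving out 2 libraries) were chosen after seeing the data. Dunn's test stood for the rank-based test of the study's methods. On simulated data for the 6-month comparison, 94.5% of 200 genes changed by 1.5 on the log2 scale were recovered among 10628 genes, and 3.08% of the calls were false. The simulated libraries held no shift of most genes such as the 6-month data show, and the tested members changed by 0.03 to 0.63 there. The simulation therefore says nothing about changes of that size or about false calls under that shift. Copies and overlaps of members' transcripts were found with minimap2 2.31 in GENCODE vM21, and promoters came from RefSeq on GRCm38.p6, with an entry for 9 of 10 members.

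The members and the gene lists were chosen with earlier results of these data known. Named outside the members were Ubr4, 11 fixed paralogs and regulators and, per list, comparison and direction, called genes with no overlap between groups and the largest changes, of which some are printed and 1 is not reported here. Srr, Gcat, Gpt2, Rrm2, the marker genes named singly and the genes lost or gained after scaling were named after their values were seen.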

Additional observations from a re-analysis of the deposited data

Results flagged for a closer look

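In 4 of the 40 gene and group sets of 4 samples, 1 sample lay far from the other 3 by Dixon's criterion, where chance alone gives about 2 (1 in 20). Psat1 was at 1.04 TPM in replicate 1 of the 6-month UBR4 mKO samples, against 0.47 to 0.506 TPM in the others. Aldh1l2 was at 1.00 TPM in replicate 2 of the 6-month WT samples, against 0.572 to 0.625 TPM. Asns was at 0.716 TPM in replicate 3 of the 6-month WT samples, against 0.51 to 0.532 TPM. Aldh18a1 was at 5.28 TPM in replicate 2 of the 24-month WT samples, against 1.46 to 2.01 TPM.

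The effect of genotype differed between 6 and 24 months, by the interaction in limma, for 4.7% of all genes, and for 1.99% after median-of-ratios scaling. Among them on TPM as deposited were 3 genes of the lists of pathways and regulators, which held 16, 15, 12, 22, 13 and 8 tested genes. This count does not exceed the share of all genes. The interaction was -1.61 for Myc (adjusted p = 0.000789), -1.57 for Gamt (adjusted p = 0.00947) and -0.71 for Mat2a (adjusted p = 0.047). Without 1 sample Myc and Gamt passed in all 16 fits and Mat2a in 3, and Mat2a passed in 7 of 28 alternative settings. After median-of-ratios scaling the call remained for Myc (-1.29, adjusted p = 0.00477) and was lost for Gamt (-1.23, adjusted p = 0.0881) and Mat2a (-0.38, adjusted p = 0.176). After scaling Aldh1l1 (0.89, adjusted p = 0.00858), Got1 and Cebpg passed as well. Of the marker genes Acta1 and Des passed on TPM as deposited among 9 tested myofiber genes. So did Myog and Myh3 among 3 of satellite cells and regenerating fibers, and Runx1, Ncam1 and Gadd45a among 4 of denervated fibers. After scaling Myog and Runx1 passed, and no gene of the other marker lists passed on either scaling.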

How the results depend on the processing

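The count of called members changed under several settings. At 6 months it was 1 of 6, and 0 after median-of-ratios scaling, 2 with no filter, 3 among genes above 0 in every sample and 3 with array weights, which also called Mthfd2 and Asns. With age in WT muscle it was 3, and 1 after median-of-ratios scaling, without mitochondrially encoded genes and on untransformed TPM, and 0 with Dunn's test. Array weights kept these 3 calls and added Pycr1 (adjusted p = 0.032, limma). With age in UBR4 mKO muscle the count was 1, and 0 with only the 2 groups compared, with Xist as a covariate, without both libraries that stand apart and with Dunn's test. For the interaction it was 0, and 1 with array weights and with Xist as a covariate. Leaving out 1 sample gave 1 to 1 at 6 months, 0 to 0 at 24 months, 1 to 3 with age in WT, 0 to 2 with age in UBR4 mKO muscle and 0 to 1 for the interaction. With the replicate block the counts were 1, 0, 3, 1 and 0 in that order, as without it. The numbers do not pair the samples, since the deviations of same-numbered samples had correlations of -0.35 to 0.181 over 24 pairs, 4 of them above 0.1. The causes of these shifts were not tested.

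Of 940 alternative values of single members, 882 kept their direction and side of the threshold, 24 lost and 8 gained a call, 7 moved by more than 1 SD, 3 of them across 0, and 19 others changed sign. At 6 months the sign changed after median-of-ratios scaling for Psph (-0.31), Pycr1 (-0.16), Asns (-0.021), Aldh18a1 (-0.19), Phgdh (-0.10), Atf4 (-0.33) and Dnaja3 (-0.011). Without mitochondrially encoded genes it changed for Psph (-0.22), Pycr1 (-0.079), Aldh18a1 (-0.11), Phgdh (-0.024) and Atf4 (-0.23). Atf4 was also at -0.028 with array weights, -0.0030 with the Xist covariate and -0.047 without both libraries, and Ddit3 at 0.094 with array weights. At 24 months Pycr1 was at -0.0080 with array weights and Mthfd2l at -0.011 without mitochondrially encoded genes. With age in WT, Psph was at 0.011 with array weights and Phgdh at -0.16 after scaling and -0.10 without mitochondrially encoded genes. With age in UBR4 mKO muscle Shmt2 was at 0.0081 with the Xist covariate. Leaving out 1 sample gave -0.011 to 0.10 for Psph, -0.047 to 0.12 for Atf4 and -0.21 to 0.0073 for Ddit3 at 6 months, -0.016 to 0.21 for Pycr1, -0.040 to 0.14 for Atf4 and -0.13 to 0.044 for Atf5 at 24 months, and -0.060 to 0.054 for Psph with age in WT. Phgdh with age in WT was also at -0.030 and -0.013 without replicate 1 or 2 of the 6-month WT samples, and Mthfd1l with age in UBR4 mKO muscle at 0.00034 without replicate 3 of the 24-month UBR4 mKO samples. Depth is unknown, so a difference of members below 1 TPM that was not called may lie under what these libraries can show.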
